A study of Homo sapiens with 30 samples.

Results

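FKBP5, FKBP4, PTGES3, STIP1 and CDC37 encode proteins that work with the chaperone HSP90 on steroid hormone receptors and kinases, and HSP90AA1 and HSP90AB1 encode the cytosolic HSP90 proteins themselves. The 7 genes were taken by symbol from the count and FPKM tables, and each symbol matched 1 row of the 58735 genes listed. Their RNA was followed in LNCaP, a prostate cancer cell line of human origin whose growth depends on androgen. All 10 groups carried an shRNA against mTOR, the kinase that links nutrient and growth signals to protein synthesis. The shRNA cells had been rescued through an inducible system with wild-type mTOR (WT), mTOR tagged with a nuclear export signal (NES), mTOR tagged with a nuclear localization signal (NLS), the nuclear form with the kinase-dead change D2357E (NLSKD), or an empty vector (EV). These 5 are called lines here, and the labels do not say whether any line is 1 clone or a pool. After 48 h in medium with 2% charcoal-stripped serum, which removes steroids, the cells received 10 nM R1881, a synthetic androgen, or ethanol (0.1%, called vehicle) for 24 h. Each of the 10 groups had 3 libraries of paired reads of 150 bases, 30 in all. Nothing in the labels says that the 3 libraries came from separate cultures, so p-values measure the spread between these libraries, which may be technical.

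Steroid receptors without hormone are held in a form ready to bind it by a cycle of chaperones. HSP70 and HSP40 proteins load the receptor, STIP1 (also called HOP) bridges HSP70 to HSP90, PTGES3 (p23) stabilises the closed HSP90, and the immunophilins FKBP4 (FKBP52) and FKBP5 (FKBP51) bind the end of HSP90 in the mature complex. FKBP4 is known as a positive factor for steroid receptor activity, and FKBP5 is known both as a co-chaperone and as a gene induced by androgens and glucocorticoids. CDC37 directs HSP90 to kinases. HSP90AA1 is the stress-inducible and HSP90AB1 the constitutive cytosolic form.

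The libraries held 21435364 to 61762468 counts, and each of the 7 genes had at least 741 counts in every library. MTOR separated the rescue lines from EV, but not NLS from NLSKD, whose libraries overlapped. Under R1881 it averaged 4296 CPM in NES, 1603 CPM in WT, 1037 CPM in NLS and 1082 CPM in NLSKD, against 66.1 ± 9.54 CPM in EV (SD, n = 3). Under vehicle the rescue lines averaged 930 to 5252 CPM, against 25.7 ± 4.86 CPM in EV. CPM is the counts-per-million value after TMM scaling of the library totals, and gene-level counts do not tell rescue from endogenous MTOR. The summed level of 8 prostate luminal markers ran from 3100 to 11600 CPM over the libraries. That of 6 markers of immune, endothelial, stromal and basal cells stayed at or under 0.282 CPM, and COL1A2 was at 0 in all 30. Mitochondrial transcripts held 3.90% to 11.7% of counts and over 9% in 5 libraries, among them EV vehicle 3 and NLS vehicle 2, which enter results below.

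A promoter window of each of 2 FKBP5 starts, of HSP90AA1 and of HSP90AB1 is shown because the results turn on these genes: FKBP5 is the member that androgen moved, and HSP90AA1 was lower in NLS than in EV, and HSP90AB1 is its paralogue. The windows are RefSeq sequences on GRCh38.p14 from 250 bases before to 50 bases after an annotated start, written along the gene's strand. Capitals mark a match to an androgen response half-site (AGAACA or TGTTCT) in FKBP5 and to a heat shock element (GAANNTTCNNGAA or TTCNNGAANNTTC) in the HSP90 genes.
FKBP5 upstream start, chr6:35728534-35728833 (minus strand): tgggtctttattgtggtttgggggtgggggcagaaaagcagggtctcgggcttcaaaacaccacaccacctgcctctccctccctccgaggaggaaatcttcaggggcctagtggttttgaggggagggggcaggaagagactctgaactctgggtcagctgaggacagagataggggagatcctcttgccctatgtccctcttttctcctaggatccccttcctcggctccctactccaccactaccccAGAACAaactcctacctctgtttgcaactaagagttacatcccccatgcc
FKBP5 downstream start, chr6:35688866-35689165 (minus strand): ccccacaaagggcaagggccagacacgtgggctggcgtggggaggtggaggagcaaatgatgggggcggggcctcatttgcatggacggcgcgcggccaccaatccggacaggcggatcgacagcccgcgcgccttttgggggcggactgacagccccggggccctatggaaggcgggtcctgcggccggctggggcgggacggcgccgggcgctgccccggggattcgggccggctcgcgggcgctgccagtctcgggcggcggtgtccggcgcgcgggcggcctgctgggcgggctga
HSP90AA1, chr14:102086995-102087294 (minus strand): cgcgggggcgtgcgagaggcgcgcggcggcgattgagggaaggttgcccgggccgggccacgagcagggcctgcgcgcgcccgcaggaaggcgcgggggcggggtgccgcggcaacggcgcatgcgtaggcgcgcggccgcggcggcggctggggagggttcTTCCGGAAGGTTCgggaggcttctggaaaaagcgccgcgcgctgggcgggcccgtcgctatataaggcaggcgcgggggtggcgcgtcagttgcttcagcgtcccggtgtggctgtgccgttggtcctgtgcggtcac
HSP90AB1, chr6:44247693-44247992 (plus strand): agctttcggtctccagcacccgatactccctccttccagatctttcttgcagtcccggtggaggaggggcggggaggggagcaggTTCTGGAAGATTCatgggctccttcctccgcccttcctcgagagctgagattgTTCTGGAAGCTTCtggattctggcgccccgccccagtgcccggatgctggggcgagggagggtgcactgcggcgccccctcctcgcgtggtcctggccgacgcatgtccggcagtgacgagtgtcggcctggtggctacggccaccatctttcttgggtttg

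Both strands were searched in 11 windows of 6 of the 7 genes. The full androgen response element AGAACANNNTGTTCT, which contains the half-site on both sides, was in none of the 11, and in 0.00285% of all 35116 promoter windows of the same length. The half-site began at base 1 of the FKBP5 upstream start and at base -114 of the HSP90AB1 window shown, where it overlaps the heat shock element at -112. Half-sites were in 14.8% of all windows. The heat shock element began at base -88 in the HSP90AA1 window shown and at -165 and -112 in the HSP90AB1 window shown. It was in 0.49% of all windows. HSP90AA1 had 2 windows and HSP90AB1 had 3, and the window shown for each was chosen because it holds the element. The other windows of these genes have no match to it. CCAAT (or ATTGG) was in 34.6% of all windows, in the FKBP5 downstream window at -151, in the other HSP90AA1 window at -223 and 4 times in 1 of the 2 STIP1 windows. A match is only a run of letters and no match says only that the letters are not in this window.

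The members lie on 5 chromosomes of hg38 and are protein-coding in GENCODE 29, the annotation whose identifiers and positions the table carries. FKBP5 (ENSG00000096060) spans chr6:35573585-35728583 on the minus strand and HSP90AB1 (ENSG00000096384) chr6:44246166-44253888 on the plus strand. HSP90AA1 (ENSG00000080824) spans chr14:102080738-102139699, minus strand. FKBP4 (ENSG00000004478) at chr12:2794953-2805423 is on the plus strand and PTGES3 (ENSG00000110958) at chr12:56663341-56688408 on the minus strand. STIP1 (ENSG00000168439) is at chr11:64185272-64204543, plus strand, and CDC37 (ENSG00000105401) at chr19:10391134-10420121, minus strand. How the counting treated strand, and reads that map to more than 1 place, is not stated in the labels or file headers. HSP90AA1 shares 197 bases with WDR20 on the opposite strand, which had up to 1616 counts, and annotated pseudogenes of a member held at most 1.22% of that member's counts (PTGES3).

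Per length, HSP90AB1 was the most abundant of the 7 genes, with a mean of 660 FPKM over the 30 libraries and rank 30 of 19951 protein-coding genes. HSP90AA1 followed at 259 FPKM (rank 89) and PTGES3 at 169 FPKM (rank 161). FKBP4 (69.1 FPKM), STIP1 (59.8 FPKM), CDC37 (59.4 FPKM) and FKBP5 (52.4 FPKM) lay close together on average, at ranks 482 to 718. FPKM is the authors' value, a count scaled by gene length and library size. FKBP5 had the widest range, between 2.80 and 164 FPKM. Its highest CPM was 59.9 times its lowest, while the same ratio was between 1.58 (HSP90AB1) and 4.30 (CDC37) in the other 6.

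FKBP5 rose with R1881 in all 5 lines, by 18-fold to 31.2-fold, and no other member passed the test in any line. In these bulk samples more RNA per cell and more cells that express a gene cannot be told apart. In WT cells FKBP5 had 1414, 1083 and 1003 CPM with R1881 and 64.3, 63.3 and 63.4 CPM with vehicle. In NES cells it had 1784, 1181 and 1367 CPM with R1881 and 81.7, 58.5 and 66.4 CPM with vehicle. The R1881 libraries of these lines stood far above their vehicle libraries, with no overlap. In NLS cells the values were 994, 628 and 736 CPM with R1881 and 42.8, 34.4 and 52.9 CPM with vehicle. In NLSKD cells they were 970, 622 and 759 CPM with R1881 and 39.6, 43.3 and 47.9 CPM with vehicle. The nuclear lines had the lowest R1881 means of the 5 lines, and their vehicle values lay in or near the range of EV. In EV cells FKBP5 had 1615, 949 and 1053 CPM with R1881 and 45.6, 29.8 and 40.6 CPM with vehicle. The lowest R1881 library of the whole set (622 CPM) was still above the highest vehicle library (81.7 CPM), and in each line the library numbered 1 was the highest of the 3 under R1881.

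**Figure D1:**
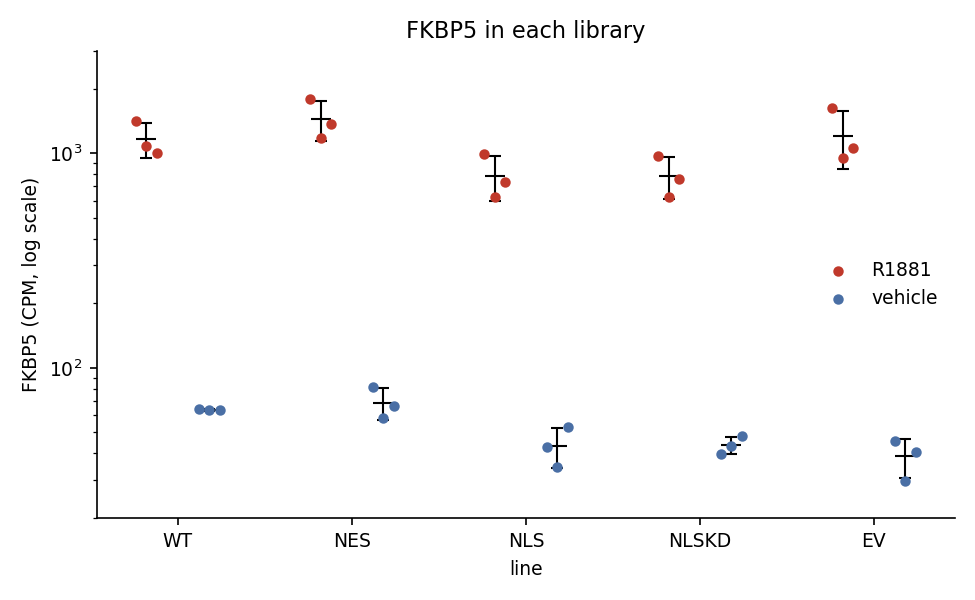
FKBP5 in CPM (log scale) in each of the 30 libraries, by line, with R1881 in red and vehicle in blue. Bars are the mean and SD of 3 libraries. All R1881 libraries lie between 622 and 1784 CPM and all vehicle libraries between 29.8 and 81.7 CPM.

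On the log2 scale the FKBP5 response was 4.20 ± 0.26 (SE) in WT, 4.39 ± 0.26 in NES, 4.18 ± 0.26 in NLS, 4.17 ± 0.26 in NLSKD and 4.96 ± 0.27 in EV. The adjusted p of edgeR's quasi-likelihood test, with Benjamini-Hochberg adjustment over 18296 genes, was 1.48e-11 in WT, 8.51e-12 in NES, 2.02e-11 in NLS, 1.95e-11 in NLSKD and 1.38e-12 in EV. By p-value FKBP5 was the 4th to 8th gene of each response, and by size of the fold change the 110th (NES) to 201st (WT). Over the 7 genes and 5 lines, 5 of 35 gene and line pairs were called at an adjusted p under 0.05, all higher and all FKBP5. Of all genes and lines, 6.47% were called, 3.5% higher. By line the share of all genes called was 6.48% in WT, 8.25% in NES, 4.44% in NLS, 4.08% in NLSKD and 9.11% in EV. The members' median log2 response was 0.22 in WT, 0.17 in NES, 0.09 in NLS, 0.15 in NLSKD and 0.24 in EV, and the median of all genes tested lay between -0.04 and 0.02.

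The response of FKBP5 was smaller in each rescue line than in EV, but these differences did not pass the adjusted threshold. The log2 difference from the EV response was -0.57 ± 0.32 in NES, -0.77 ± 0.32 in WT, -0.78 ± 0.32 in NLS and -0.79 ± 0.32 in NLSKD. By edgeR the WT difference had an unadjusted p of 0.0252, that of NES 0.0872, that of NLS 0.0227 and that of NLSKD 0.021, with an adjusted p of 1 for all 4. The 4 differences share the EV libraries. Without EV R1881 1, the highest EV library, they were -0.30 in NES, -0.49 in WT, -0.51 in NLS and -0.53 in NLSKD. Over the members 0 of 35 differences were called by edgeR, 0 by DESeq2 and 0 by limma, and 3 had an unadjusted p under 0.05. Over all genes 0.0153% were called by edgeR, and the share at an unadjusted p under 0.05 was not taken. The response in NLS differed from that in NLSKD by 0.01 ± 0.32, with a 95% interval between -0.62 and 0.64.

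The order of the 2 immunophilins per length differed between the treatments. Under R1881 the FPKM of FKBP5 divided by that of FKBP4 was 1.54 ± 0.523 in WT, 1.52 ± 0.35 in NES, 1.21 ± 0.61 in NLS, 1.18 ± 0.366 in NLSKD and 1.74 ± 0.555 in EV (SD, n = 3). Under vehicle the mean ratio of each line was between 0.0562 (EV) and 0.0967 (WT). The R1881 means were above 1 in all 5 lines, but single libraries of NLS (0.751) and NLSKD (0.771) were below 1.

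Without a GC covariate, the other 6 members had no called androgen response by edgeR, DESeq2 or limma, and none of their 30 gene and line pairs reached an unadjusted p under 0.05. HSP90AB1 had the narrowest estimates: its log2 response lay between -0.23 (WT) and -0.04 (NLS), always below 0, and no 95% interval reached beyond -0.45 or 0.18. In WT cells HSP90AB1 averaged 1926 ± 26.6 CPM with R1881 and 2251 ± 50.9 CPM with vehicle, groups that did not overlap (adjusted p = 0.329, edgeR). The libraries of NES cells did not overlap either, with 2058 ± 88.8 CPM under R1881 and 2388 ± 187 CPM under vehicle (adjusted p = 0.323, edgeR). FKBP4 responses lay between -0.05 and 0.22, those of STIP1 between 0.09 and 0.25, and those of PTGES3 between 0.00 and 0.32 (log2). HSP90AA1 lay between -0.25 and 0.31. CDC37 had the widest estimates, between 0.09 ± 0.42 (NLS) and 0.65 ± 0.42 (WT), with 95% intervals that reached 1.47.

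**Figure D2:**
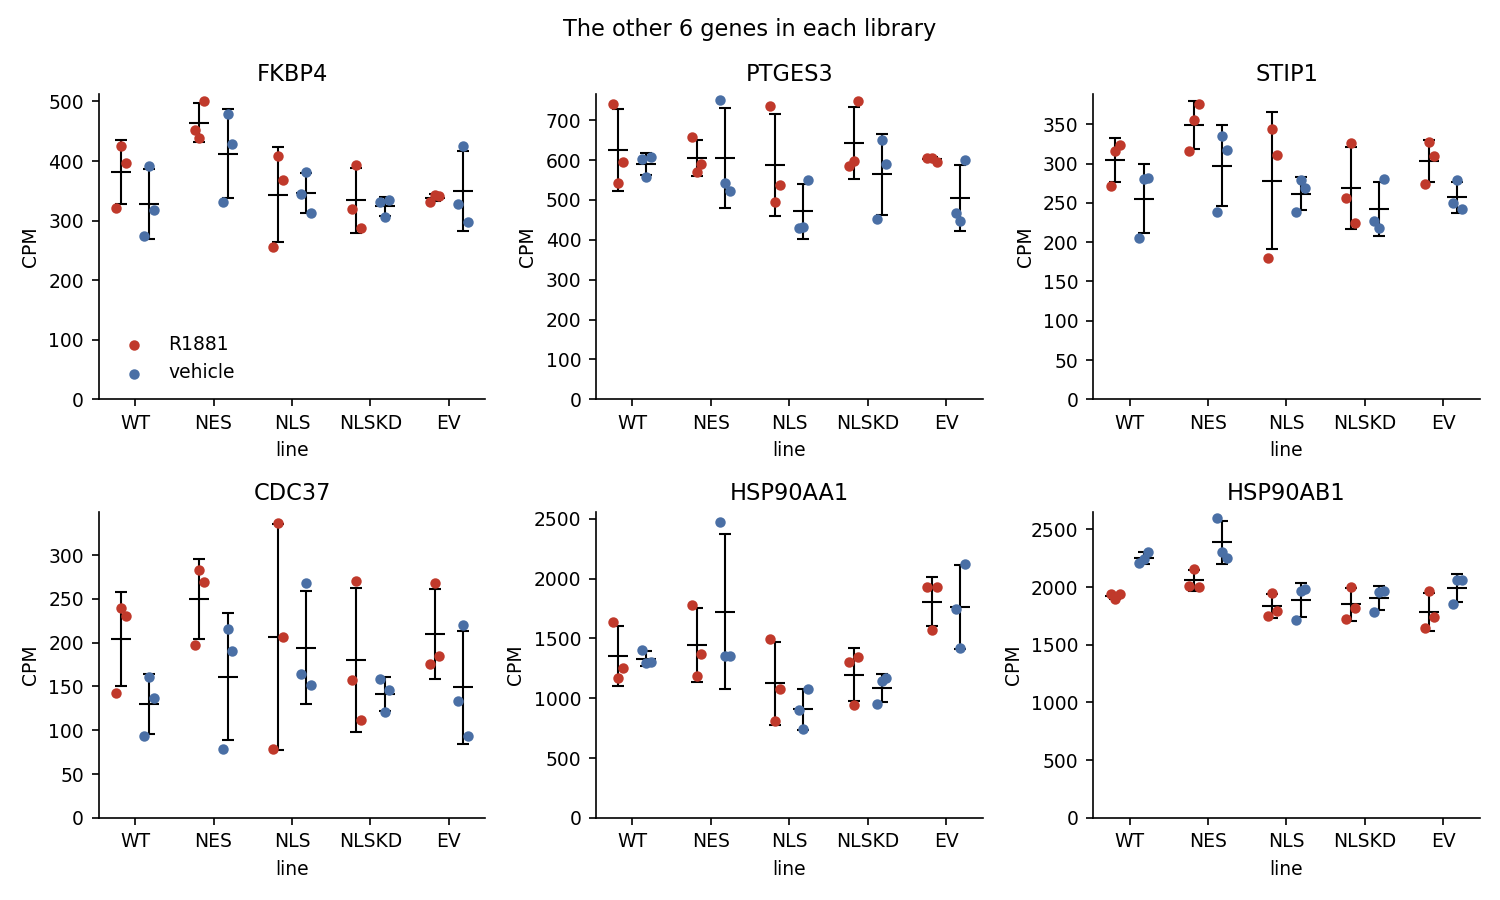
The 6 other genes in each library in CPM, by line, with R1881 in red and vehicle in blue; bars are the mean and SD of 3 libraries. HSP90AB1 stays between 1647 and 2602 CPM, CDC37 spreads between 78.2 and 336 CPM, and HSP90AA1 has its lowest libraries in NLS (741 CPM under vehicle).

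Against EV without androgen, 2 of 28 member and line pairs were called, FKBP5 in NES and HSP90AA1 in NLS. The share over all genes was 5.06%, and by line it was WT 6.71%, NES 4.94%, NLS 4.57% and NLSKD 4.01%. FKBP5 averaged 68.9 ± 11.8 CPM in NES and 38.7 ± 8.05 CPM in EV under vehicle (SD, n = 3), and all 3 NES libraries were above all 3 EV libraries. It rose by 0.83 ± 0.23 (log2, adjusted p = 0.0312, edgeR). In WT under vehicle FKBP5 averaged 63.7 ± 0.585 CPM, also above every EV library, but the difference of 0.72 ± 0.23 had an adjusted p of 0.0601 (edgeR). NLS (43.4 ± 9.25 CPM) and NLSKD (43.6 ± 4.12 CPM) overlapped EV, with differences of 0.17 ± 0.23 each. The NES call ended without EV vehicle 2 (log2 difference 0.68, adjusted p = 0.179), EV vehicle 3 (0.87, adjusted p = 0.0762), NES vehicle 1 (0.72, adjusted p = 0.119) or NES vehicle 3 (0.87, adjusted p = 0.0701), all by edgeR. It also ended without the libraries of high mitochondrial share (0.88, adjusted p = 0.0631, edgeR).

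HSP90AA1 was lower in NLS than in EV under vehicle, by 0.96 ± 0.24 on the log2 scale (adjusted p = 0.0168, edgeR). The NLS libraries had 902, 741 and 1080 CPM and the EV libraries 1743, 1419 and 2120 CPM, without overlap. NLSKD had 951, 1142 and 1169 CPM, again below every EV library, with a log2 difference of -0.70 ± 0.24 (adjusted p = 0.124, edgeR). WT had 1405, 1291 and 1300 CPM, also below every EV library (-0.40 ± 0.24). NES had 2471, 1351 and 1350 CPM and overlapped EV (-0.03 ± 0.24). Same-numbered libraries of NLSKD and EV deviated together only weakly, with correlations over expressed genes of 0.238, 0.109 and 0.403. HSP90AA1 itself was lowest in library 2 in EV and in library 1 in NLSKD. With the number as a block, fitted as the same shift in all 10 groups, the NLSKD difference was -0.67 ± 0.18 (adjusted p = 0.0216, edgeR). The NLS call ended without EV vehicle 1 (-0.94, adjusted p = 0.0533), EV vehicle 3 (-0.80, adjusted p = 0.118), NLS vehicle 1 (-0.92, adjusted p = 0.079) or NLS vehicle 2 (-0.83, adjusted p = 0.121), all by edgeR. Without the libraries of high mitochondrial share, EV vehicle 3 and NLS vehicle 2 among them, it was -0.66 ± 0.27 (adjusted p = 0.322, edgeR).

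Against EV with androgen, 0 of 28 member and line pairs were called by edgeR, by DESeq2 or by limma. By edgeR 6.86% of all genes were called (WT 8.49%, NES 6.96%, NLS 6.23%, NLSKD 5.75%). At an unadjusted p under 0.05 in edgeR 5 pairs passed, and the share of all genes at that threshold was not taken. FKBP5 averaged 786 ± 188 CPM in NLS and 784 ± 175 CPM in NLSKD, against 1206 ± 359 CPM in EV. The highest library of either nuclear line (994 and 970 CPM) was above the lowest EV library (949 CPM). The log2 difference was -0.62 ± 0.23 in each (adjusted p = 0.121 in each, edgeR). WT (1167 ± 218 CPM, -0.05 ± 0.23) and NES (1444 ± 309 CPM, 0.26 ± 0.23) lay on both sides of EV. Same-numbered libraries of both nuclear lines and EV also deviated together under R1881. With the number as a block the FKBP5 differences were -0.61 ± 0.16 in NLS and -0.61 ± 0.16 in NLSKD, with adjusted p of 0.0105 and 0.0107 (edgeR). With this block 5 of 28 pairs and 11.8% of all genes were called.

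The line means of HSP90AA1 had the same order under R1881 as under vehicle, lowest in NLS and highest in EV. HSP90AA1 had 1496, 808 and 1075 CPM in NLS and 1301, 942 and 1348 CPM in NLSKD, against 1927, 1571 and 1927 CPM in EV. All libraries of the nuclear lines were below all EV libraries. The log2 differences were -0.68 ± 0.24 in NLS (adjusted p = 0.0974) and -0.60 ± 0.24 in NLSKD (adjusted p = 0.172), both by edgeR. With the replicate block they were -0.71 ± 0.18 (adjusted p = 0.0099) and -0.60 ± 0.18 (adjusted p = 0.0301), both by edgeR. WT (1353 ± 249 CPM) and NES (1445 ± 307 CPM) differed from EV by -0.42 ± 0.24 and -0.32 ± 0.24. Without NLS R1881 1, the highest NLS library, FKBP5 (-0.82, adjusted p = 0.0494) and HSP90AA1 (-0.94, adjusted p = 0.0267) passed the edgeR threshold in NLS against EV. Over all 6 fits without 1 library FKBP5 reached -0.35 and HSP90AA1 -0.49 at the smallest, with adjusted p up to 0.584 and 0.334 (edgeR).

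The difference between the 2 HSP90 genes was not itself tested. As a ratio of FPKM, HSP90AA1 stood at 0.353 ± 0.125 of HSP90AB1 in NLS, 0.372 ± 0.0907 in NLSKD, 0.398 ± 0.0702 in WT and 0.401 ± 0.0969 in NES under R1881, against 0.583 ± 0.113 in EV. Under vehicle it was 0.274 ± 0.0518 in NLS, 0.323 ± 0.0183 in NLSKD, 0.336 ± 0.0224 in WT and 0.404 ± 0.117 in NES, against 0.503 ± 0.1 in EV (SD, n = 3). EV had the highest mean ratio under both treatments. HSP90AB1 itself differed from EV by at most 0.26 ± 0.11 (NES, vehicle, adjusted p = 0.265, edgeR). Its libraries in WT and NES under vehicle, and in NES under R1881, were all above every EV library of that treatment. In these groups the lower ratio therefore holds a higher HSP90AB1 as well. FKBP4 in NES under R1881 averaged 464 ± 32.8 CPM, above every EV library (339 ± 6.46 CPM), with a difference of 0.45 ± 0.18 (adjusted p = 0.155, edgeR). PTGES3, STIP1 and CDC37 differed from EV by less than 0.39 in every line and treatment, and no unadjusted p of edgeR was under 0.05 without a GC covariate.

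**Figure D3:**
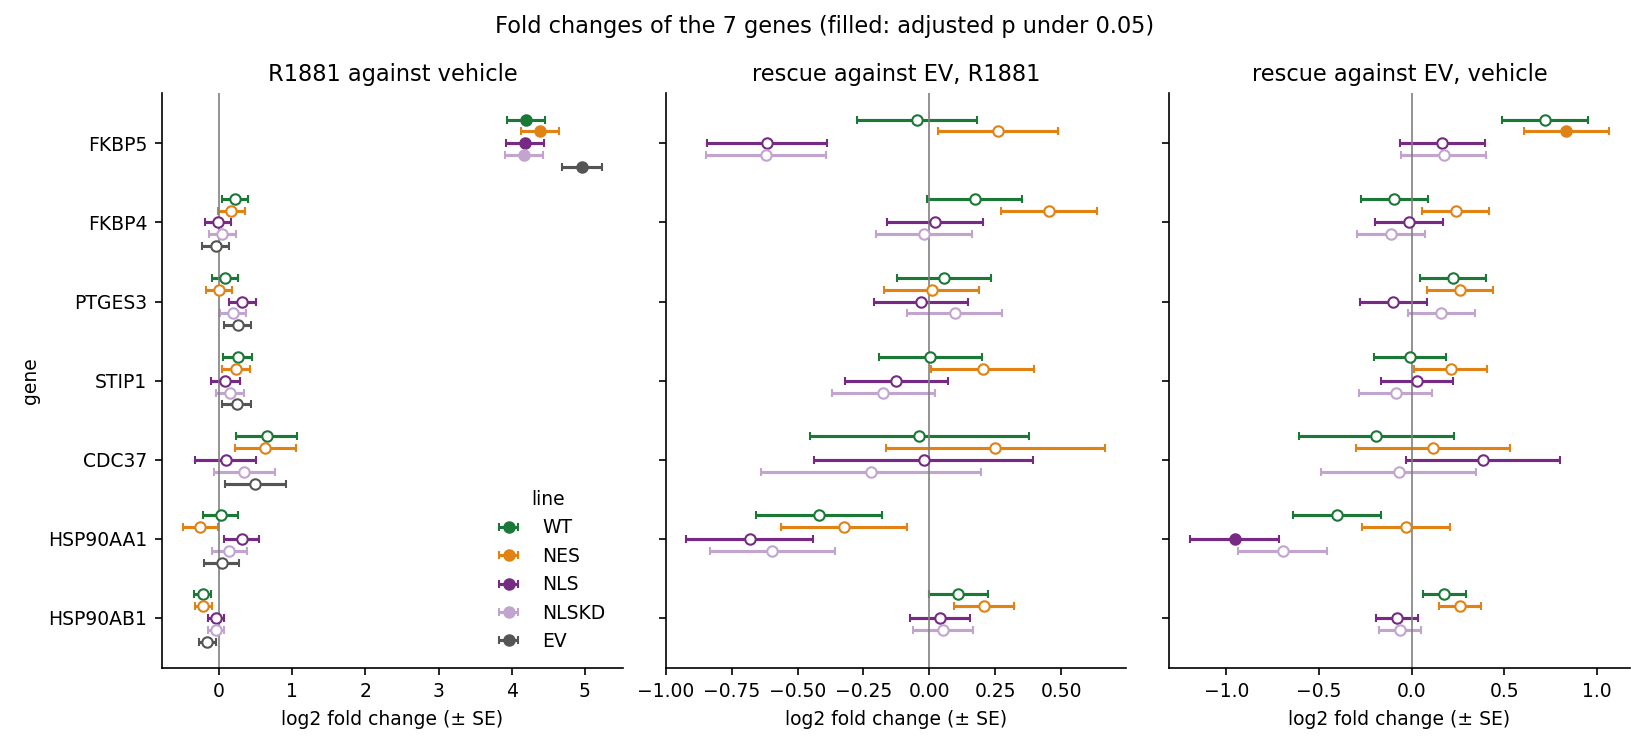
Log2 fold changes of the 7 genes with their SE (edgeR): R1881 against vehicle in each line (left), and each rescue line against EV under R1881 (middle) and under vehicle (right); filled points have an adjusted p under 0.05. FKBP5 responses stand between 4.17 and 4.96, and the called differences from EV are FKBP5 in NES (0.83) and HSP90AA1 in NLS (-0.96), both under vehicle.

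Between rescue lines 0 of 42 member pairs were called by edgeR, where 0.722% of all genes were called. DESeq2 called 3 pairs and limma at a pseudocount of 1 called 1, all in NLS against NES. Those of DESeq2 were FKBP5 under R1881 (-0.85), and HSP90AA1 (-0.92) and HSP90AB1 (-0.33, adjusted p = 0.0186, DESeq2) under vehicle. HSP90AB1 was also called there with the GC index described below (-0.35, adjusted p = 0.0343, edgeR). In NLS against NES DESeq2 called 309 genes higher and 168 lower of 18296 under R1881, and 199 higher and 195 lower under vehicle. Limma called 112 higher and 142 lower under R1881, where its member call fell. At an unadjusted p under 0.05 in edgeR 6 pairs passed, and the share of all genes at that threshold was not taken. The largest FKBP5 difference was NLS against NES under R1881, with 994, 628 and 736 CPM in NLS and 1784, 1181 and 1367 CPM in NES. The groups did not overlap and the log2 difference was -0.88 ± 0.23 (adjusted p = 0.0514, edgeR). Same-numbered libraries deviated together here too, and with the block the difference was -0.88 ± 0.16 (adjusted p = 0.00109, edgeR). Without NLS R1881 1 it was -1.08 ± 0.25 (adjusted p = 0.032, edgeR). Over all 6 fits without 1 library it lay between -1.08 and -0.68, with adjusted p up to 0.322 (edgeR). HSP90AA1 in NLS against NES under vehicle differed by -0.93 ± 0.24 (adjusted p = 0.0613, edgeR). Without NES vehicle 1, which at 2471 CPM stood apart from the other NES libraries, it was -0.57 ± 0.23 (adjusted p = 0.554, edgeR). A difference in FKBP5 with the kinase-dead change was not detectable: NLS against NLSKD gave 0.00 ± 0.23 under R1881, with a 95% interval between -0.44 and 0.45, and -0.01 ± 0.23 under vehicle, between -0.46 and 0.44. For HSP90AA1 the same comparisons gave -0.09 ± 0.24 and -0.26 ± 0.24.

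Replicates of a group differed most in CDC37, with a pooled SD of 0.579 on the log2 scale, and least in HSP90AB1, at 0.0901. FKBP5 (0.285), HSP90AA1 (0.301), STIP1 (0.242), FKBP4 (0.217) and PTGES3 (0.211) lay between them. In NLS under R1881 CDC37 had 78.2, 336 and 206 CPM, and the same libraries held 1496, 808 and 1075 CPM of HSP90AA1, in the opposite order. After each group's mean was taken off, CDC37 correlated with HSP90AA1 at r = -0.935 and with FKBP4 at 0.933, and HSP90AA1 with PTGES3 at 0.85, over 30 libraries. These are descriptions over libraries that share depth and preparation, and carry no test.

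This spread moved with the base composition of the library. A GC index was set for each library as the median log2 deviation of the 20% of protein-coding genes richest in G and C (over 57.8%) minus that of the 20% poorest (under 40.5%), with 2059 genes in each and the 7 members left out. It ran between -1.16 and 1.04. Within groups the index correlated with CDC37 at r = 0.968, FKBP4 at 0.92, STIP1 at 0.799, HSP90AB1 at 0.114, FKBP5 at -0.806, PTGES3 at -0.859 and HSP90AA1 at -0.958. The longest transcript has a GC content of 60% in CDC37, 51.1% in FKBP4, 55.2% in STIP1, 48.1% in HSP90AB1, 41.5% in FKBP5, 42.9% in PTGES3 and 45.2% in HSP90AA1. The group means of the index were 0.365 ± 0.561 in NLS and -0.103 ± 0.696 in EV under vehicle, and 0.207 ± 0.917 in NLS and 0.0222 ± 0.287 in EV under R1881 (SD, n = 3).

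**Figure D4:**
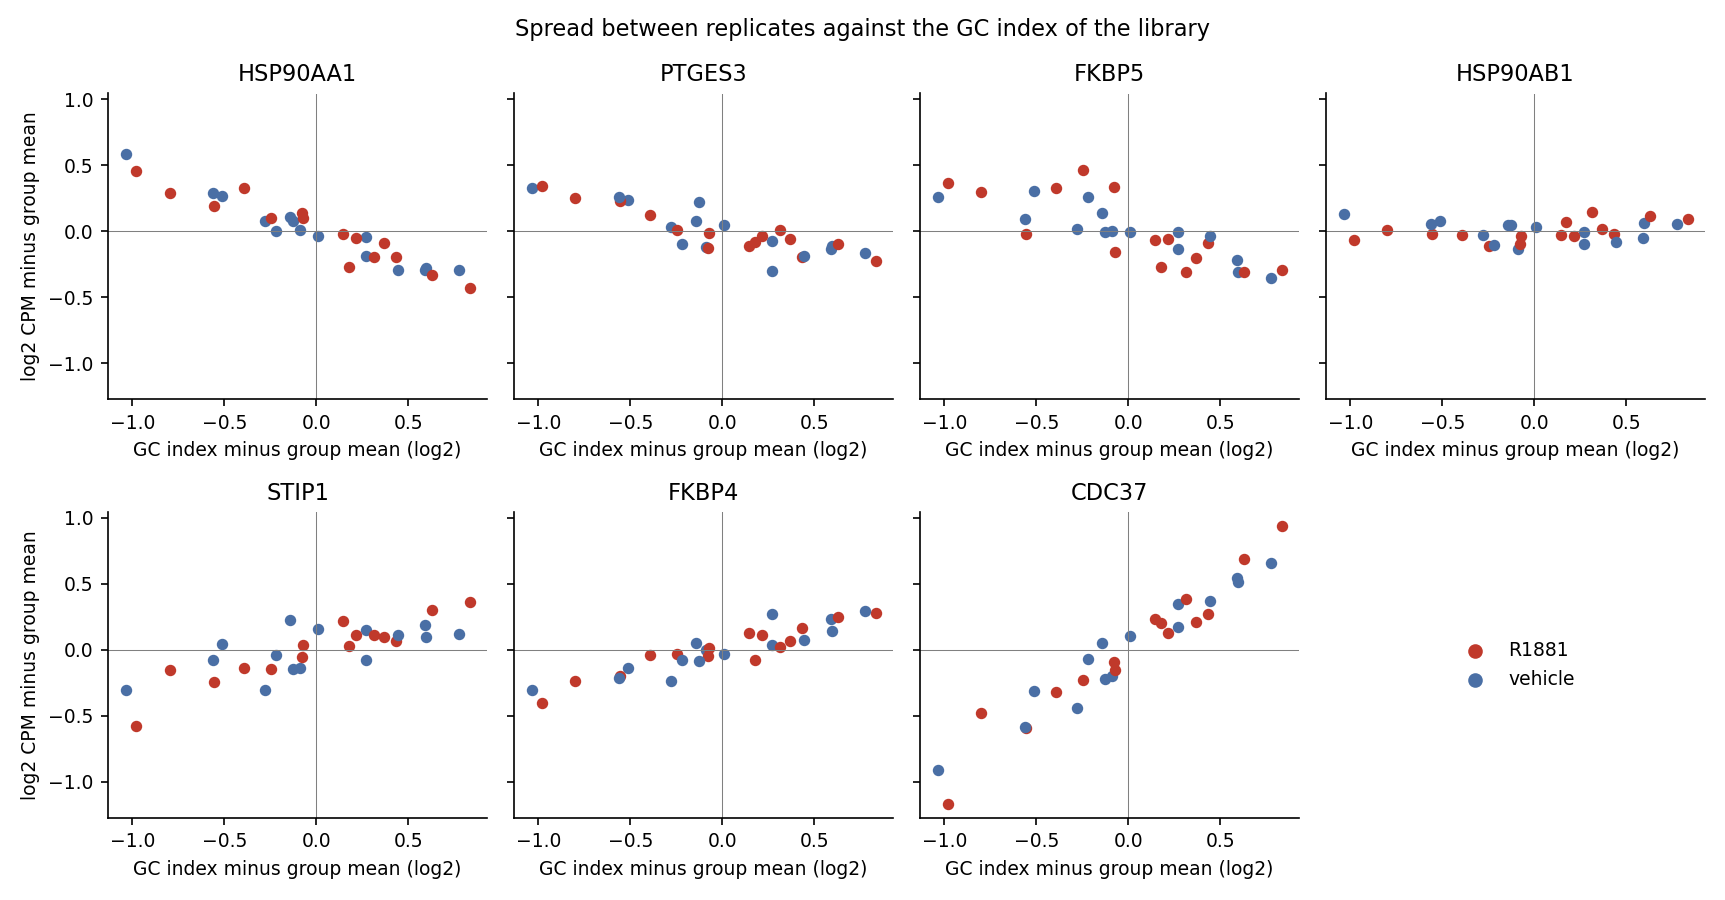
Log2 CPM of each gene against the GC index of the library, both as deviations from the mean of the library's group (30 libraries, R1881 red, vehicle blue). CDC37, FKBP4 and STIP1 climb with the index (r between 0.799 and 0.968), HSP90AA1, PTGES3 and FKBP5 descend (r between -0.958 and -0.806), and HSP90AB1 is flat (r = 0.114).

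With the index as a covariate, an alternative added after the data were seen, HSP90AA1 was lower than EV in 3 of the 4 rescue lines under both treatments. The log2 differences under vehicle were -0.73 ± 0.09 in NLS (adjusted p = 1.5e-06), -0.69 ± 0.09 in NLSKD (adjusted p = 3.13e-06) and -0.53 ± 0.09 in WT (adjusted p = 9.74e-05), all by edgeR. Under R1881 they were -0.63 ± 0.09 in NLS (adjusted p = 7.54e-06), -0.67 ± 0.09 in NLSKD (adjusted p = 4.05e-06) and -0.48 ± 0.09 in WT (adjusted p = 0.000208), all by edgeR. FKBP5 under R1881 was then -0.56 ± 0.14 in NLS (adjusted p = 0.00417), -0.66 ± 0.14 in NLSKD (adjusted p = 0.000841) and 0.40 ± 0.14 in NES (adjusted p = 0.0373), by edgeR. In this fit 8 of 28 member pairs under R1881 and 5 of 28 under vehicle were called, where 18.8% and 12.7% of all genes were called. CDC37 in NLS was among them under R1881 (-0.39 ± 0.12, adjusted p = 0.0205, edgeR), against -0.02 without the index. With the index the androgen response was also called for CDC37 in EV (0.44 ± 0.12, adjusted p = 0.00743) and WT (0.37 ± 0.12, adjusted p = 0.0347) and for PTGES3 in EV (0.30 ± 0.10, adjusted p = 0.0292), by edgeR. These and the 5 FKBP5 responses were 8 of 35 pairs, where 14.9% of all genes were called. With index and replicate block PTGES3 was also called higher with R1881 in NES (0.24, adjusted p = 0.0297) and NLS (0.24, adjusted p = 0.0316) and higher in NES than in EV under vehicle (0.24, adjusted p = 0.025), by edgeR.

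The genes whose log2 CPM followed FKBP5 most closely over the 30 libraries were SLC2A3 (r = 0.991), MAF (0.99), SLC38A4 (0.988), CCDC141 (0.987) and SMS (0.986), among 10304 protein-coding genes. With the mean of each treatment taken off, r was 0.695 for SLC2A3, 0.811 for MAF, 0.565 for SLC38A4, 0.575 for CCDC141 and 0.834 for SMS. STIP1 was closest to AHSA1, which activates the ATPase of HSP90 (r = 0.924), then to NOP56 (0.919) and FTSJ3 (0.899). CDC37 was closest to MEA1 (0.983), HSP90AA1 to MINDY2 (0.945), PTGES3 to MRPL42 (0.931), FKBP4 to UBL4A (0.918) and HSP90AB1 to HOXA10 (0.805). HSP90AB1 had CACYBP (0.787) and CCNB1IP1 (0.773) as its next genes. Over the same 30 libraries the GC index correlated with CDC37 at 0.918, FKBP4 at 0.746 and STIP1 at 0.688. With HSP90AB1 it correlated at -0.0959, HSP90AA1 at -0.651 and PTGES3 at -0.696. The likeness was not adjusted for the index, so how much of it follows the index was not tested.

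The other chaperone genes had no called androgen response. None of 19 other HSP90 co-chaperones, 14 genes of the HSP70 and HSP40 arm, 5 HSP90 paralogues and heat shock factors and 11 other FKBP genes tested was called in any line by edgeR. Of all genes and lines, 6.47% were called by edgeR. At an unadjusted p under 0.05 the counts were 0 of 95, 2 of 70, 4 of 25 and 6 of 55 gene and line pairs. The share of all genes at that unadjusted threshold was not taken. FKBP1B and FKBP6, also of the FKBP family, were too low to be tested. Against EV, 6.86% of all genes were called under R1881 and 5.06% under vehicle by edgeR. The 19 co-chaperones, which include AHSA1, PPID and PPP5C, gave no call there either, with 0 of 76 pairs under each treatment. At an unadjusted p under 0.05 they had 3 pairs under R1881 and 7 under vehicle. The lowest adjusted p was that of PPID, the immunophilin cyclophilin 40, in WT under vehicle (0.50 ± 0.15, adjusted p = 0.0516, edgeR).

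In the HSP70 and HSP40 arm, BAG2, a nucleotide exchange factor and inhibitor of the ubiquitin ligase STUB1, was lower than EV in all 4 rescue lines. Under R1881 BAG2 averaged 0.487 ± 0.183 CPM in WT, 0.806 ± 0.275 CPM in NES, 2.82 ± 0.699 CPM in NLS and 5.12 ± 1.11 CPM in NLSKD, against 30.5 ± 4.18 CPM in EV (SD, n = 3). On the log2 scale the difference was -5.94 ± 0.52 in WT (adjusted p = 1.16e-08), -5.25 ± 0.49 in NES (adjusted p = 5.13e-08), -3.44 ± 0.44 in NLS (adjusted p = 9.27e-06) and -2.57 ± 0.42 in NLSKD (adjusted p = 0.000256), by edgeR. Of all genes, 6.86% were called under R1881 and 5.06% under vehicle, and the R1881 count of this list is near that share. BAG2 made up all 4 calls of 56 under R1881 and 4 of the 6 of 56 under vehicle. The other 2 were DNAJB1, an HSP40 that activates HSP70 (0.58 ± 0.13, adjusted p = 0.00617, edgeR), and HSPA1B, the stress-inducible HSP70 (0.90 ± 0.24, adjusted p = 0.0275, edgeR), both higher in NES. HSPA1B has the near-identical copy HSPA1A, so its count is uncertain. Between rescue lines 4 of 84 pairs of this list were called, where 0.722% of all genes were. BAG2 was higher in NLS than in WT (2.50 ± 0.49, adjusted p = 0.0114, edgeR) and than in NES (1.81 ± 0.46, adjusted p = 0.0437, edgeR) under R1881. HSPH1, an exchange factor of HSP70, and DNAJA1, an HSP40, were lower in NLS than in NES under vehicle, at 76.7 ± 18.8 against 159 ± 38.7 CPM (-1.05 ± 0.25, adjusted p = 0.0339, edgeR) and 207 ± 27 against 318 ± 62.9 CPM (-0.62 ± 0.14, adjusted p = 0.0252, edgeR).

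Of the other FKBP genes, FKBP15 was lower than EV in WT (-0.48 ± 0.12, adjusted p = 0.0137) and NLSKD (-0.45 ± 0.12, adjusted p = 0.027) under R1881 by edgeR. FKBP11, a prolyl isomerase of the secretory pathway, was lower in WT under R1881 (-1.24 ± 0.31, adjusted p = 0.0114, edgeR). These were the 3 calls of 44 pairs, and the same genes and lines made the 3 of 44 under vehicle: FKBP15 in WT (-0.67 ± 0.12) and NLSKD (-0.53 ± 0.12) and FKBP11 in WT (-1.53 ± 0.32). These counts are near the share of all genes called, 6.86% under R1881 and 5.06% under vehicle. The phosphatases PHLPP1 and PHLPP2, which FKBP5 is known to bring to AKT, and the kinases AKT1 and AKT2 had no call in any comparison with EV or vehicle by edgeR, with 2 of 20 response pairs and 1 of 16 pairs against EV under each treatment at an unadjusted p under 0.05.

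The glucocorticoid receptor NR3C1 had group means of 0.315 to 0.881 CPM in the rescue lines and 0.0561 CPM in EV under R1881, and 1.32 to 2.91 CPM over the lines under vehicle. Its EV libraries under R1881 held 0 to 3 counts each, so no fold is given there. NR3C1 was called lower with R1881 in WT (-2.53 ± 0.57, adjusted p = 0.00492), NES (-2.23 ± 0.59, adjusted p = 0.0154) and EV (adjusted p = 0.000192), by edgeR. Under R1881 it was called higher than EV in WT (adjusted p = 0.0145) and NLSKD (adjusted p = 0.00231), by edgeR. Of all genes and lines, 6.47% were called in the responses, 2.97% lower. Against EV under R1881 6.86% were called, 3.13% higher. The progesterone receptor PGR had group means of at most 0.134 CPM under R1881 (0 to 6 counts per library) and 0.57 to 2.1 CPM under vehicle. It was called lower with R1881 in all 5 lines by edgeR, and no fold is given at these counts. The group means of the mineralocorticoid receptor NR3C2 lay between 4.25 and 10.6 CPM under R1881 and between 7.84 and 11.6 CPM under vehicle, and those of ESR2 at or under 0.594 CPM, with no call for either in any line. ESR1 had 0 to 4 counts per library and was not tested.

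FKBP5 was set beside 7 other genes known to answer both androgens and glucocorticoids. SGK1, a kinase, ERRFI1, an inhibitor of EGFR, ZBTB16 and PER1, regulators of transcription, rose with R1881 in all 5 lines, and DUSP1, a phosphatase of MAP kinases, rose in EV (0.74 ± 0.14, adjusted p = 0.000608, edgeR). These were 21 of 35 pairs, where 6.47% of all genes were called, 3.5% higher. The list's median log2 response lay between 1.67 (NLS) and 2.10 (NES). SGK1 responses were between 3.91 ± 0.42 (EV) and 4.56 ± 0.45 (WT) on the log2 scale, close to those of FKBP5, but at 17.5 to 37.0 CPM under R1881 and 0.733 to 1.86 CPM under vehicle. TSC22D3 and KLF9 had no call in any response.

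Against EV under R1881, 16 of 28 pairs of this list were called, all lower, where 6.86% of all genes were called, 3.73% lower. FKBP5 had 0 calls in 4 lines in the main fit. As above, it was called lower in NLS and NLSKD with the replicate block or with the GC index, and higher in NES with the index. The 16 calls of the list were ERRFI1, TSC22D3, KLF9 and DUSP1 in each of the 4 rescue lines. ERRFI1 averaged 184 ± 35 CPM in WT, 244 ± 52.4 CPM in NES, 164 ± 43.7 CPM in NLS and 183 ± 47.7 CPM in NLSKD, against 554 ± 132 CPM in EV. TSC22D3 (GILZ) averaged 31.7 ± 1.46 CPM in WT, 42.1 ± 11.4 CPM in NES, 39.2 ± 13.4 CPM in NLS and 48.9 ± 2.48 CPM in NLSKD, against 125 ± 10.8 CPM in EV (SD, n = 3). Their log2 differences were between -1.76 ± 0.24 and -1.18 ± 0.23 for ERRFI1 and between -1.98 ± 0.24 and -1.36 ± 0.23 for TSC22D3. Under vehicle TSC22D3 was the gene called, lower in 4 of 4 lines (-2.20 ± 0.24 to -1.45 ± 0.23). It made the 4 calls of 28, where 5.06% of all genes were called. The comparisons share the EV libraries, and the difference between FKBP5 and these genes was not itself tested.

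**Figure D5:**
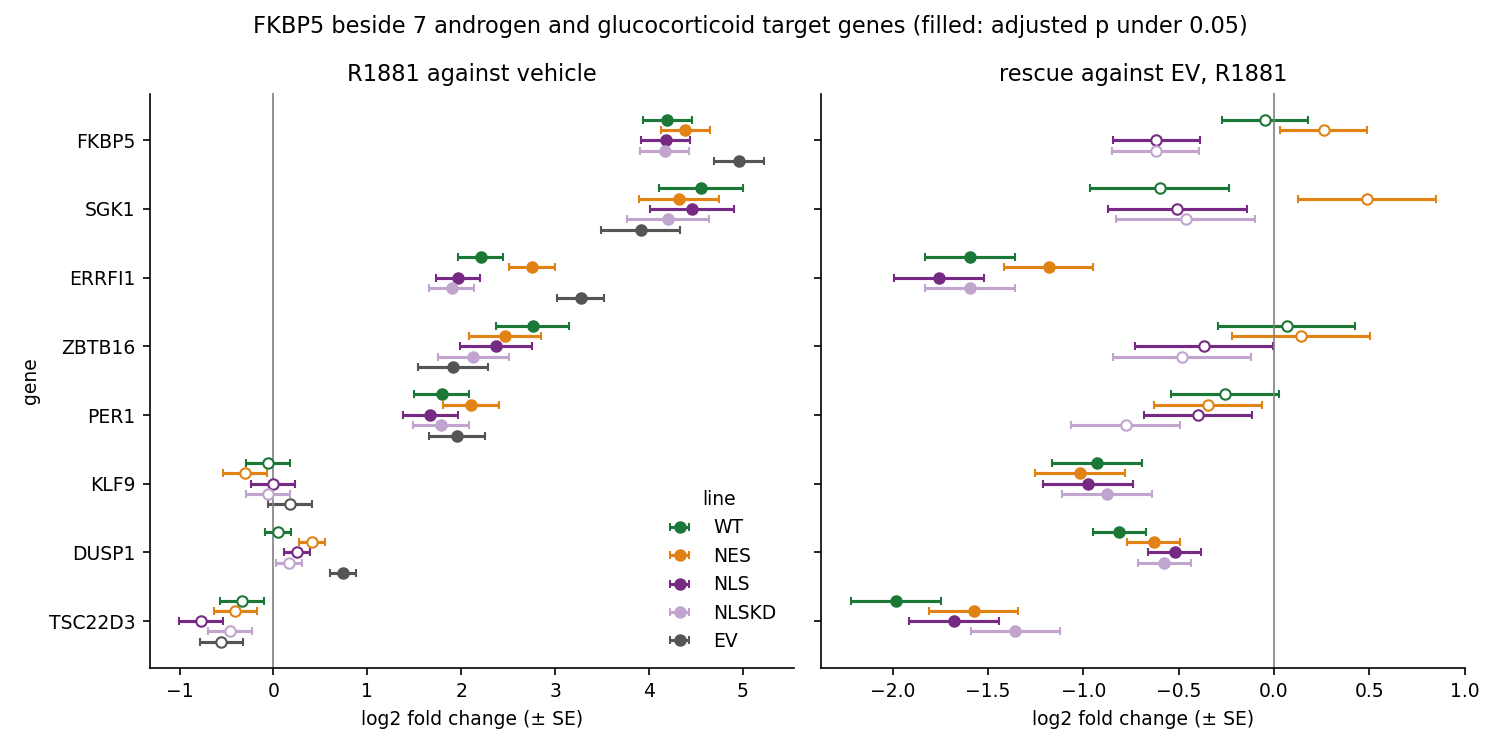
Log2 fold changes with SE (edgeR) of FKBP5 and 7 other target genes: R1881 against vehicle in each line (left) and each rescue line against EV under R1881 (right); filled points have an adjusted p under 0.05. FKBP5 and SGK1 have responses near or above 4, and ERRFI1, KLF9, DUSP1 and TSC22D3 are lower than EV in all 4 rescue lines. No FKBP5 point on the right is filled in this fit, which has no replicate block and no GC index. With the block FKBP5 was called lower in NLS and NLSKD (-0.61 each). With the index it was called lower in NLS (-0.56) and NLSKD (-0.66) and higher in NES (0.40).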

How the data were processed

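Per the file headers, the authors deposited raw counts and FPKM for 58735 genes and 30 libraries, with 0 columns of other samples. HISAT2 2.0.5, featureCounts 1.5.0-p3 and hg38 are named in the submitters' processing notes without role or order. The deposited FPKM came from these counts and gene lengths: 100% of genes with at least 1000 counts gave the same denominator within 0.1%, library by library. The counts were fitted with edgeR 4.0.16 in R 4.3.3 (TMM, filterByExpr, glmQLFit, glmQLFTest, two-sided), 1 mean per group and no block, all 30 libraries in 1 fit. The filter left 18296 genes. A call is an adjusted p under 0.05 (Benjamini-Hochberg, separately in 24 comparisons), and SEs come from the F statistic. On simulated counts with known changes the fit was tested first. Library totals of 21435364 to 61762468 counts set the counting precision, and the lowest chi-square per degree of freedom between replicates was 11.6, so none repeated another.

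Same-numbered libraries were taken as paired where all 3 correlations of their deviations from the group means exceeded 0.1. The labels do not say what a number marks. This held for the responses in EV, WT, NES and NLSKD, for NLS and NLSKD against EV under both treatments, for NLS against NES, NES against WT and NLS against WT under R1881, and for NLS against NLSKD under vehicle. Alternatives were RLE factors, DESeq2 1.42.0, no filter, the block, only the groups compared, limma 3.58.1 on log2(FPKM + 1) and log2(FPKM + 0.1), no library over 9% mitochondrial, each library left out, and, added later, the GC index. Named beside the 7 members were up to 4 genes per list and family of comparisons with the lowest adjusted p, the steroid receptors, and the genes most like each member (Pearson r of log2 CPM, mean CPM of at least 5). Some genes of these lists are not reported here. The members and lists were chosen with earlier results of these data known. Intervals are 95% from the SE. The share of all genes at an unadjusted p under 0.05 was not taken, so counts at that threshold stand without one.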

Additional observations from a re-analysis of the deposited data

How the results depend on the processing

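The 5 FKBP5 androgen responses kept their direction and their call under every alternative run, between 3.95 and 5.11 (log2) when each library was left out. Of 2898 gene, comparison and setting combinations, 94 fell on the other side of the threshold, and the cause was not tested. FKBP5 in NES against EV under vehicle lost its call with only the groups compared (0.85), with limma on log2(FPKM + 1) (0.69), without the libraries of high mitochondrial share (0.88) and in 4 of 6 fits without 1 library (0.68 to 0.98 over all 6), and kept it with RLE factors, DESeq2, no filter, the block and the GC index. FKBP5 in WT against EV under vehicle passed with DESeq2 (0.71), the replicate block (0.75), the GC index (0.62) and both (0.67). FKBP5 against EV under R1881 passed in NLS with the block (-0.61), the GC index (-0.56), both (-0.57) and 1 of 6 fits without a library (-0.82 to -0.35 over all 6), in NLSKD with the block (-0.61), the GC index (-0.66) and both (-0.64), and in NES with the GC index (0.40) and both (0.36). The FKBP5 response differed from that in EV with the GC index in NLS (-0.90, adjusted p = 0.0239, edgeR) and NLSKD (-0.85, adjusted p = 0.0446, edgeR).

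Member pairs called in the androgen responses numbered 8 with the GC index and 10 with index and block, against 5. Under R1881 against EV they numbered 5 with the replicate block, 8 with the index, 9 with both and 0 to 2 without 1 library, against 0. Under vehicle they numbered 4 with the block, 0 with only the groups compared, 1 with limma on log2(FPKM + 1), 0 without libraries of high mitochondrial share, 5 with the index, 8 with both and 0 to 2 without 1 library, against 2. Between rescue lines they numbered 3 with DESeq2, 2 without a filter, 3 with the block, 1 with limma on log2(FPKM + 1), 10 with the index, 12 with both and 0 to 2 without 1 library, against 0. In the response differences they numbered 2 with the index and 3 with both, against 0. With the block and the index the share of all genes called rose as well. In the responses it was 14.9% with the index and 17.8% with both, against 6.47%. Against EV under R1881 it was 11.8% with the block, 18.8% with the index and 23.1% with both, against 6.86%. Under vehicle it was 8.62% with the block, 12.7% with the index and 16.3% with both, against 5.06%. With only the groups compared fewer genes were called under vehicle. NES against EV had 118 higher and 237 lower of 16213, and NLS against EV 147 and 325 of 16202. Without libraries of high mitochondrial share these were 255 and 432 in NES and 153 and 238 in NLS, of 18644. The main fit had 342 and 562 in NES and 290 and 546 in NLS, of 18296. Between rescue lines the share was 1.74% with the block, 2.72% with the index and 4.31% with both, against 0.722%. Without a filter NLS against NES had 215 genes called higher and 109 lower of 36420 under R1881, and 134 and 177 under vehicle. In the response differences the share was 0.355% with the index and 0.732% with both, against 0.0153%. Where same-numbered libraries did not deviate together, the block added calls for FKBP4 in NES against EV under R1881 (0.46) and, under vehicle, for FKBP5 in WT against EV and, in NLS against NES, for FKBP5 (-0.66) and HSP90AA1 (-0.90). The block ended no call of a member. CDC37 in NLS against WT under R1881 turned from 0.02, not called, to -0.46 with the GC index (adjusted p = 0.0445, edgeR) and -0.45 with index and block (adjusted p = 0.031, edgeR). What depth limits was not tested for the members, each with at least 741 counts in every library.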
